A study of Homo sapiens with 4 samples.

Results

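The genes described here are the EMT transcription factors SNAI1, SNAI2, ZEB1, ZEB2, TWIST1 and TWIST2, the epithelial transcription factors GRHL2 and OVOL2, and the classical cadherins CDH1 and CDH2. They were taken by name from the platform annotation, each by a probe that lists that gene alone, and all 10 were measured among the 18417 genes of the array. ZEB2 had 2 such probes and the brighter was used, and the other 9 genes had 1 probe each.

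HuH7 is a human hepatocellular carcinoma cell line. The cells were infected with lentivirus made from the pLKO.1 vector, selected with puromycin for 7 days, kept below 10 passages and grown in medium with 10% serum. There were 2 arrays of cells with stable expression of a control shRNA and 2 of cells with stable expression of shRNA against both MKL1 and MKL2, so every sample carried the vector and the selection. MKL1 and MKL2, now named MRTFA and MRTFB, are coactivators of serum response factor (SRF) that respond to the state of actin, and the comparison asks which transcripts depend on them. The titles call the 2 samples of each group biological replicates, but nothing says whether they came from separate infections, so the p-values measure only the spread between these samples. The labels do not say that the cells were cloned after selection.

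Epithelial-mesenchymal transition (EMT) is the loss of cell-cell junctions and apical polarity by epithelial cells as they take on a migratory, mesenchymal form. Its core transcription factors are the zinc finger proteins of the Snail and ZEB families and the basic helix-loop-helix TWIST proteins, which bind E-box sequences and repress epithelial genes, with the E-cadherin gene CDH1 as the best known target. GRHL2 and OVOL2 act the other way and maintain epithelial genes, and the microRNAs of the miR-200 family and the ZEB factors repress each other. A switch from E-cadherin to N-cadherin, encoded by CDH2, is a common readout, although hepatocytes carry both cadherins. MRTF and SRF have been tied to EMT through SNAI2 and through the cytoskeletal genes of the mesenchymal state.

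The miR-200 family is shown here because its targets ZEB1 and ZEB2 are among the genes described and the array carries probes for its hairpins. The mature sequences below are RefSeq's (GRCh38.p14), with the seed, bases 2 to 8, in capitals. The upper 3 share 1 seed and the lower 2 share another.
hsa-miR-200b-3p: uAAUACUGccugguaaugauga
hsa-miR-200c-3p: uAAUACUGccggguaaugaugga
hsa-miR-429: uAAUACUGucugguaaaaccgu
hsa-miR-141-3p: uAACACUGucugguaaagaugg
hsa-miR-200a-3p: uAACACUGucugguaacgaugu

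Promoter windows from 250 bases before to 50 bases after an annotated start were at hand for ZEB1, ZEB2, TWIST2 and CDH2, 11 windows in all, and were searched for the E-box CACCTG and its reverse complement CAGGTG. A match was found in 2 of the 11 windows, against 20.6% of the 35116 windows of all genes. Both were windows of ZEB1, but most of the 11 windows were ZEB1's, so the matches do not set this gene apart. The ZEB1 window at chr10:31318966-31319265 on the plus strand of GRCh38.p14 (RefSeq) held 3 matches, which begin 242 and 85 bases before the start and 33 bases after it. It is printed because it had more E-box matches than the other 10 windows, with the matches in capitals.
ZEB1: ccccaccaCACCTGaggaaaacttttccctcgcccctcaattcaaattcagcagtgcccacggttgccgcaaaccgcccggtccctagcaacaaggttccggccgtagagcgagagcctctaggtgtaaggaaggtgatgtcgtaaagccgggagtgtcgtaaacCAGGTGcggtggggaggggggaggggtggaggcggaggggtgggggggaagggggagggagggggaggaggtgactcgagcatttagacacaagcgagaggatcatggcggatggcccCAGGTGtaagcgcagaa
The CArG box, the motif that SRF binds, was searched for in the same way and matched none of the 11 windows, against 1.29% of all windows. With so low a share, 11 windows are too few for the lack of a match to set these genes apart. These matches describe the letters of the windows and do not show that a factor binds there.

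The values are log2 expression values with similar distributions on the 4 arrays, with medians between 5.68 and 5.73, and no detection call stands behind them. The SD over genes of the difference between 2 arrays was 0.154 for the controls, 0.265 for the knockdown arrays and 0.261 to 0.31 between control and knockdown arrays. The probe that lists MRTFA, together with RBM15, read 7.77 and 7.80 in the control cells and 6.81 and 6.91 in the knockdown cells, so that it fell to 0.525 of the control level (limma adjusted p = 0.0404, tested beside the 18417 genes). This call was lost without control replicate 1 or 2, at log2 differences of -0.944 and -0.912, against -0.928 with all 4 arrays. In those fits the control arm is 1 array and the spread comes from the 2 knockdown arrays alone. The call was also lost with every probe as its own feature (limma adjusted p = 0.199). MRTFB read 7.20 and 7.22 against 6.84 and 7.11, and its log2 difference of -0.23 did not pass the test (SE 0.12, limma adjusted p = 0.448). SRF read 9.80 and 9.97 against 9.37 and 9.52 (limma adjusted p = 0.188). All 9 measured hepatocyte markers lay above the upper quartile of the probes on every array, among them ALB and AFP. None of the 3 leukocyte and 5 endothelial markers did so, and their mean log2 values per array were 4.14 to 4.39 and 4.86 to 5.19. The mean of the 6 fibroblast and stellate cell markers was 5.59 and 5.65 on the control arrays and 5.42 and 5.85 on the knockdown arrays, and their part in the results was not tested. Of 5 cholangiocyte markers, 3 lay above the upper quartile on every array.

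None of the 10 genes passed limma's test at an adjusted p of 0.05, which 0.174% of all genes passed (0.0923% lower and 0.0814% higher in the knockdown cells). SNAI1, SNAI2 and CDH1 read higher on each knockdown array than on either control array, ZEB1, ZEB2 and CDH2 read lower on each, and the groups overlapped for TWIST1, TWIST2, GRHL2 and OVOL2. Thus 6 of the 10 genes had groups that did not overlap, 3 in each direction, where 45.5% of all genes did (22.5% higher and 23.0% lower). At an unadjusted limma p under 0.05 there were 5 of the 10 (SNAI1, SNAI2 and CDH1 higher, ZEB1 and CDH2 lower), where 14.3% of all genes reached it (6.25% higher and 8.04% lower). The 10 genes were chosen with earlier results of these data known, so these counts are no test of them against all genes. The median log2 difference of the 10 genes was 0.044, against 0.0082 over all genes. Standard errors and intervals below are on the log2 scale.

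**Figure D1:**
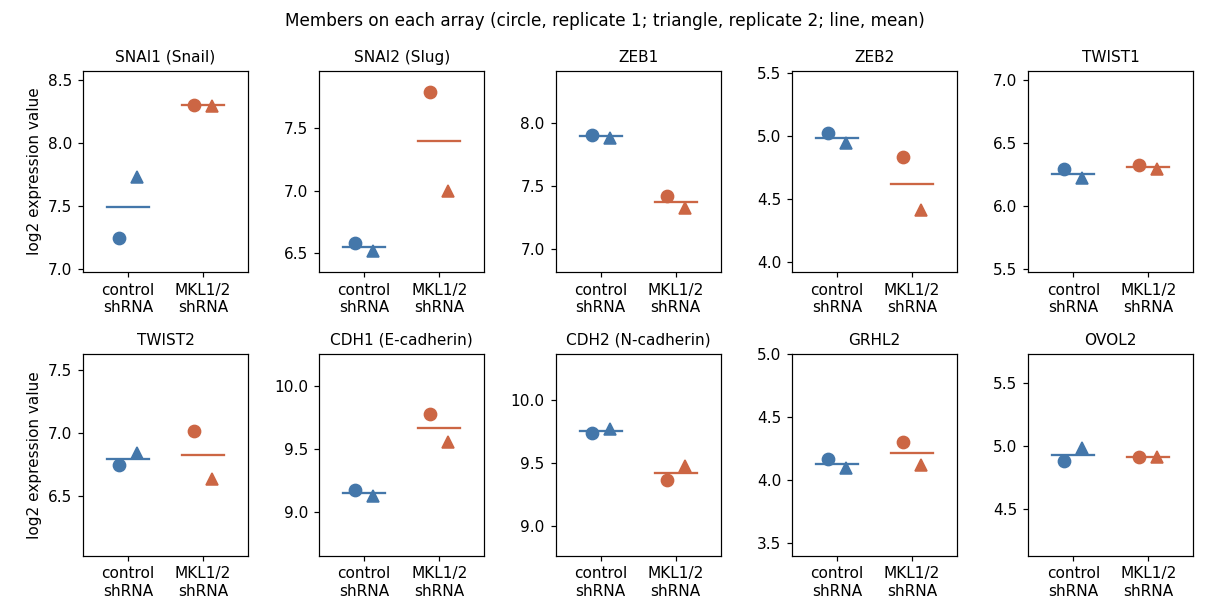
Log2 expression value (vertical axis, each panel spanning the same range) of the 10 genes on the 2 control shRNA and 2 MKL1/2 shRNA arrays, with circles for replicate 1, triangles for replicate 2 and lines for group means. SNAI1, SNAI2 and CDH1 lie higher and ZEB1, ZEB2 and CDH2 lower on both knockdown arrays, and for SNAI2 the 2 knockdown arrays stand far apart, at 7.78 and 6.995.

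SNAI1, which encodes Snail, a repressor whose protein is short-lived, read 7.24 and 7.73 in the control cells and 8.30 and 8.29 in the knockdown cells. Both knockdown arrays lay at nearly 1 level, and the spread lay in the controls, of which replicate 1 was the lower. The means were 7.49 ± 0.347 and 8.30 ± 0.0077 (SD, n = 2 each), and the log2 difference of 0.81 corresponds to a factor of 1.75 (SE 0.168, 95% interval 0.40 to 1.22, limma adjusted p = 0.137). It stood at rank 115 from the top of the 18417 genes by difference. The difference was 0.57 without control replicate 1 and 1.06 without control replicate 2.

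SNAI2, which encodes Slug, a close relative of Snail that also recruits co-repressors to E-boxes, read 6.59 and 6.52 in the control cells and 7.78 and 6.995 in the knockdown cells. Knockdown replicate 1 lay far above the other 3 arrays, and replicate 2 lay above both controls by a smaller step of 0.41. The log2 difference was 0.84 (SE 0.244, 95% interval 0.24 to 1.43, limma adjusted p = 0.223), the largest of the 10 genes and rank 100 of all genes. It was 0.44 without knockdown replicate 1 (limma adjusted p = 0.106) and 1.23 without knockdown replicate 2 (limma adjusted p = 0.00993). In each of these sets of 3 arrays the knockdown arm is 1 array, assumed to vary like the 2 controls that give the spread, so a p past the threshold there says nothing about the agreement of the knockdown arrays.

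ZEB1, a zinc finger and homeodomain repressor of CDH1 and of the miR-200 genes, read 7.90 and 7.88 in the control cells and 7.42 and 7.32 in the knockdown cells. The arrays of each group lay close together and the groups were 0.46 apart. The log2 difference was -0.52, or 0.696 of the control level (SE 0.0962, 95% interval -0.76 to -0.29), and it had the smallest limma adjusted p of the 10 genes, 0.121.

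ZEB2, the paralog of ZEB1, read 5.03 and 4.95 in the control cells and 4.83 and 4.41 in the knockdown cells, below the median of the probes on all 4 arrays. Knockdown replicate 1 lay just under the controls and replicate 2 well under them. The log2 difference was -0.36 (SE 0.154, 95% interval -0.74 to 0.0093, limma adjusted p = 0.359), and it was -0.15 without knockdown replicate 2 and -0.58 without knockdown replicate 1. The second ZEB2 probe, annotated by a single transcript, read 1.98 and 1.97 in the controls and 1.95 and 1.80 in the knockdown cells, near the bottom of the scale, and no difference is given for it.

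TWIST1 and TWIST2, basic helix-loop-helix factors that pair with E proteins, showed no separation between the groups. TWIST1 read 6.295 and 6.22 in the control cells and 6.33 and 6.29 in the knockdown cells, and its log2 difference of 0.054 had a 95% interval from -0.18 to 0.28 (limma adjusted p = 0.855). TWIST2 read 6.74 and 6.84 against 7.02 and 6.63, so that 1 knockdown array lay above both controls and the other below both. Its difference was 0.034, with a wider interval of -0.32 to 0.39 (limma adjusted p = 0.949). The intervals leave room for differences of up to 0.28 and 0.39 on the log2 scale in the upward direction.

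CDH1, which encodes E-cadherin, the adhesion receptor of epithelial adherens junctions, read 9.17 and 9.13 in the control cells and 9.78 and 9.56 in the knockdown cells. It lay above the upper quartile of the probes on all 4 arrays, and the knockdown arrays were both higher, replicate 1 the more so. The log2 difference was 0.52, a factor of 1.43 (SE 0.113, 95% interval 0.25 to 0.79, limma adjusted p = 0.149). It was 0.41 without knockdown replicate 1 and 0.63 without knockdown replicate 2 (limma adjusted p = 0.036), a fit in which the further knockdown array stands alone and the spread comes from the 2 controls. CDH1 and the genes of its repressors Snail and Slug thus read higher on the same arrays, on which ZEB1 and ZEB2 read lower. How these changes relate was not tested.

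CDH2, which encodes N-cadherin, read 9.74 and 9.77 in the control cells and 9.36 and 9.47 in the knockdown cells. Both knockdown arrays lay below both controls, by at least 0.27. The log2 difference was -0.34, or 0.793 of the control level (SE 0.0975, 95% interval -0.57 to -0.098, limma adjusted p = 0.223). Relative to the control means, CDH1 and CDH2 lay at 0.63 and -0.39 on knockdown replicate 1 and at 0.41 and -0.28 on replicate 2. The shift of CDH1 against CDH2 was thus 0.85 on the log2 scale, a description of these arrays with no test.

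GRHL2, a grainyhead factor that activates CDH1 and other junction genes, read 4.17 and 4.098 in the control cells and 4.31 and 4.12 in the knockdown cells. OVOL2, a zinc finger repressor of ZEB1, read 4.88 and 4.98 against 4.92 and 4.91. Both genes lay below the median of the probes on every array, so a low level limits what their probes can show. Their log2 differences were 0.081 (95% interval -0.18 to 0.34, limma adjusted p = 0.795) and -0.015 (95% interval -0.25 to 0.22, limma adjusted p = 0.967).

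**Figure D2:**
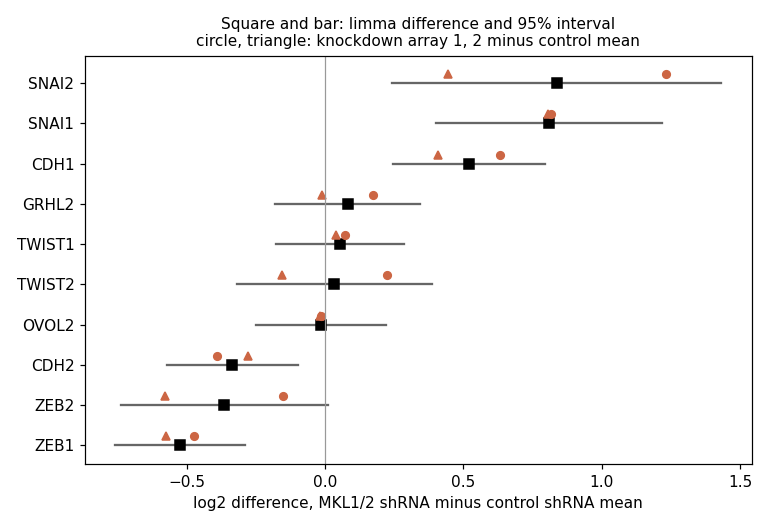
Log2 difference, MKL1/2 shRNA minus control shRNA (horizontal axis), of the 10 genes: squares and bars give limma's difference and 95% interval, circles and triangles knockdown replicates 1 and 2 minus the control mean. The intervals of SNAI2, SNAI1 and CDH1 lie above 0 and those of CDH2 and ZEB1 below it, before any adjustment over genes, and both knockdown arrays lie on the same side for these 5 genes.

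None of the hairpin probes of the miR-200 family passed the test, and 2 of them, MIR429 and MIR200B, lay clear of the lower quartile of the probes. MIR429 read 5.59 and 5.51 in the control cells and 5.96 and 5.62 in the knockdown cells (log2 difference 0.24, SE 0.135), and MIR200B read 6.06 and 6.20 against 6.21 and 6.30 (0.13, SE 0.104). MIR200A and MIR141 read between 2.92 and 3.34 on all arrays and MIR34A between 2.79 and 2.96, under the lower quartile of the probes, so their order is not interpreted. MIR200C, named after its value was seen, had overlapping groups, at 3.92 and 4.02 against 4.18 and 3.70. These values lie on either side of the lower quartile of the probes, so their order is not interpreted either. Of the 6 hairpins measured, MIR34A included, 5 had groups apart and higher (22.5% over all genes), among them the dim MIR200A, MIR141 and MIR34A. None of the 6 reached even an unadjusted limma p under 0.05. These probes read hairpin or primary transcripts in total RNA and not the mature microRNAs.

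Other transcription factors and partners of EMT gave 15 measured genes of 17 listed, of which none passed over all genes tested. At an unadjusted limma p under 0.05, 1 was lower and 1 higher (8.04% and 6.25% over all genes). TCF4, which encodes an E protein that pairs with TWIST, lay at a log2 difference of -0.46 (SE 0.104), with 8.62 and 8.70 in the controls and 8.12 and 8.28 in the knockdown cells. ID4 and ID3, which encode inhibitors of E proteins, lay at 0.35 (SE 0.129) and 0.22 (SE 0.0951), and PRRX1, a homeobox factor of mesenchymal cells, at 0.30 (SE 0.129). SNAI3, the remaining Snail family gene and named after its values were seen, read 7.42 and 7.43 in the controls and 7.74 and 7.43 in the knockdown cells. Its groups were not apart, because control replicate 2 and knockdown replicate 2 had the same value. Among 10 measured epithelial regulators of 15 listed, none passed, with a list median of 0.099. KLF5, a Krüppel-like factor of epithelia, lay at 0.49 (SE 0.124), ESRP2, an epithelial splicing regulator, at 0.35 (SE 0.141), KLF4 at 0.34 (SE 0.167) and FOXA1, a pioneer factor of liver, at -0.26 (SE 0.094). The family relatives of GRHL2 and OVOL2 had overlapping groups, with differences of -0.056 for GRHL1, 0.029 for GRHL3 and 0.05 for OVOL1.

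The other cadherins went both ways. Of 25 measured of 27 listed, none passed over all genes tested, 6 had groups apart and lower and 7 apart and higher (52% in all, near the 45.5% of all genes), and the median was 0.024. The desmosomal cadherin genes DSC2, DSG3 and DSG2 lay at -0.55 (SE 0.11), -0.53 (SE 0.108) and -0.36 (SE 0.0989). The other 4 desmosomal members, named after their values were seen, lay close to 0 and above it. They were DSC1 at 0.024, DSC3 at 0.055, DSG4 at 0.091 and DSG1 at 0.13. DSC1, DSC3 and DSG1 lay under the lower quartile of the probes on every array, and DSG4 just above it. A low level thus limits what these 4 probes can show. CDH19 lay at -0.59 (SE 0.155) at a low level, between 4.23 and 5.05. DSC2 read 8.38 and 8.24 in the controls and 7.68 and 7.84 in the knockdown cells, opposite in direction to CDH1 on both knockdown arrays.

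Catenins, nectins and linked junction proteins, only some of which tie cadherins to actin, had no gene past the threshold over all genes tested, of 18 measured and 19 listed. In this list 9 had groups apart and lower and 2 apart and higher, or 61.1% apart against 45.5% of all genes (23.0% lower and 22.5% higher), with a median of -0.104. The 2 higher genes, named after their values were seen, were ADAM10 at 0.34 (SE 0.129) and NECTIN2 at 0.23 (SE 0.094). VCL, which encodes the actin linker vinculin and is a known SRF target, read 8.55 and 8.33 in the controls and 7.63 and 8.01 in the knockdown cells (log2 difference -0.62, SE 0.153, limma adjusted p = 0.183). AFDN, which encodes the nectin linker afadin, lay at -0.51 (SE 0.108), PKP2, a desmosomal plakophilin, at -0.40 (SE 0.117) and NECTIN3 at -0.32 (SE 0.102). CTNNB1 and CTNNA1, the genes of the cadherin-bound catenins and named after their values were seen, lay closer to 0, at -0.13 (SE 0.106) and -0.079 (SE 0.0977).

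Epithelial junction, polarity and keratin genes went both ways. Of 37 measured of 40 listed none passed over all genes tested, 4 were lower and 6 higher at an unadjusted limma p under 0.05 (8.04% and 6.25% over all genes), and the median was 0.051, at 0.156 in knockdown replicate 1 and -0.01 in replicate 2. CDS1, an enzyme of phospholipid synthesis, read 6.56 and 6.68 in the controls and 7.53 and 7.27 in the knockdown cells (log2 difference 0.77, SE 0.123, limma adjusted p = 0.0962). TMEM30B, a flippase subunit, lay at 0.49 (SE 0.105), whereas CLDN2, a pore-forming claudin, and AP1M2, a subunit of the epithelial sorting adaptor, lay at -0.51 (SE 0.0996) and -0.50 (SE 0.101). EPCAM, the epithelial adhesion molecule, was named after its values were seen: it read 8.74 in knockdown replicate 1 and 7.76 in replicate 2, on either side of both controls.

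Mesenchymal markers, of which 21 of 22 listed were measured, had 6 genes lower and 3 higher at an unadjusted limma p under 0.05 (8.04% and 6.25% over all genes) and none past the adjusted threshold. COL1A2, a chain of type I collagen, read 7.68 and 7.56 in the controls and 6.32 and 6.80 in the knockdown cells, and thus differed by -1.06 on the log2 scale (SE 0.169, limma adjusted p = 0.0964). ITGAV, the integrin subunit alpha V, lay at -0.71 (SE 0.196), LOX, the collagen cross-linking enzyme, at -0.61 (SE 0.108) and TNC, tenascin C, at -0.39 (SE 0.115). Among the standard markers of EMT, named after their values were seen, the intermediate filament gene VIM lay at -0.37 (SE 0.123) and the fibronectin gene FN1 at -0.076 (SE 0.107), with overlapping groups for FN1. The 3 higher genes, also named after their values were seen, were ITGA5, an integrin subunit, at 0.43 (SE 0.151), SPARC, a matrix protein, at 0.42 (SE 0.129) and S100A4, a calcium-binding protein, at 0.39 (SE 0.15). The list's median was -0.076.

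TGFB1, the ligand best known for inducing Snail and ZEB genes, was the single upstream gene that passed. It fell from 9.50 and 9.72 in the control cells to 7.46 and 7.89 in the knockdown cells (limma adjusted p = 0.0217). The fall was to 0.261 of its control level. On the same knockdown arrays SNAI1 and SNAI2 read higher and ZEB1 and ZEB2 read lower, and a link to TGFB1 was not tested. The call of TGFB1 was lost without control replicate 1 or 2 (limma adjusted p = 0.465 and 0.41) and with every probe as its own feature (limma adjusted p = 0.173). Of the 21 upstream inputs 1 was called lower and none higher (0.0923% and 0.0814% over all genes), and the median was -0.071. SMURF2 and SMURF1, ubiquitin ligases of the pathway, lay at -0.39 (SE 0.112) and -0.26 (SE 0.0923), and SMAD3, a signal transducer, at -0.27 (SE 0.0984).

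Co-repressors that Snail and ZEB factors recruit had no gene past the threshold over all genes tested, of 19 measured, and a median of -0.137. Groups were apart and lower for 7 and apart and higher for 3, or 52.6% in all, against 45.5% of all genes (23.0% lower and 22.5% higher). AJUBA, a LIM protein that bridges Snail to co-repressors, read 9.40 on both control arrays and 9.01 and 9.04 in the knockdown cells (log2 difference -0.38, SE 0.0922, limma adjusted p = 0.178). EZH2 and EED, Polycomb subunits, lay at -0.40 (SE 0.129) and -0.38 (SE 0.106), and LIMD1, a relative of AJUBA, at 0.30 (SE 0.104). Among 15 measured genes of 16 that control Snail protein turnover, none passed over all genes tested and the median was -0.043. GSK3B, the kinase that marks Snail for degradation, read 9.13 and 8.92 in the controls and 8.52 and 8.88 in the knockdown cells (-0.33, SE 0.151). LATS2, a Hippo kinase, lay at -0.26 (SE 0.102), CUL1, a ubiquitin ligase scaffold, at -0.23 (SE 0.0974) and USP27X, a deubiquitinase of Snail, at 0.28 (SE 0.139).

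**Figure D3:**
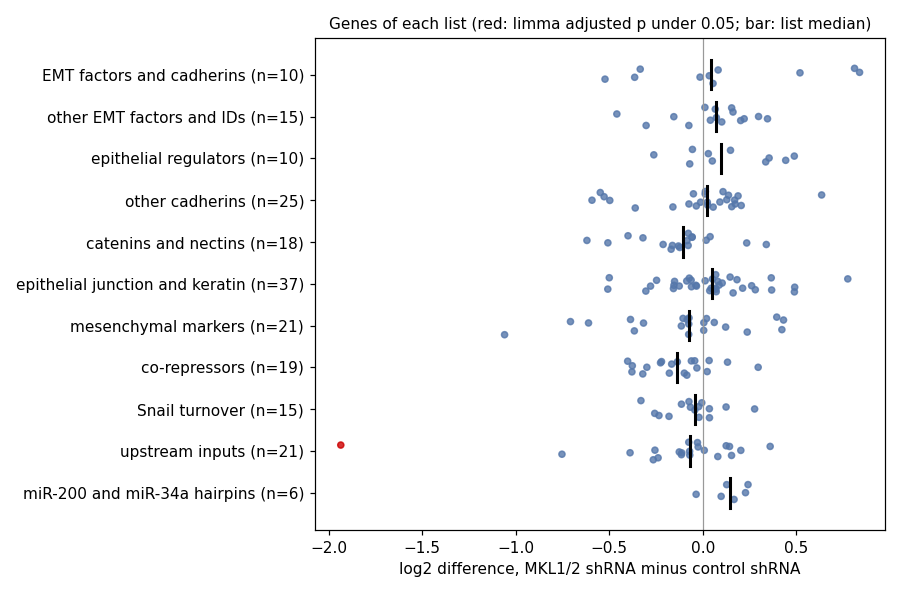
Log2 difference, MKL1/2 shRNA minus control shRNA (horizontal axis), of each measured gene in the 10 EMT factors and cadherins and in 10 related lists, with vertical bars for list medians and red points for genes past a limma adjusted p of 0.05. TGFB1, at -1.94 among the upstream inputs, is the red point, and list medians lie between -0.137 and 0.147.

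The array left out moved some of the 10 genes more than others. The 6 genes with separate groups kept their direction with any 1 array left out, as they must. SNAI2 and ZEB2 moved most with the choice of knockdown array, in opposite senses: SNAI2 stood further from the controls in replicate 1 and ZEB2 in replicate 2. SNAI1 moved with the choice of control array. ZEB1 lay between -0.57 and -0.47 and CDH2 between -0.39 and -0.28 over the 4 sets of 3 arrays.

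**Figure D4:**
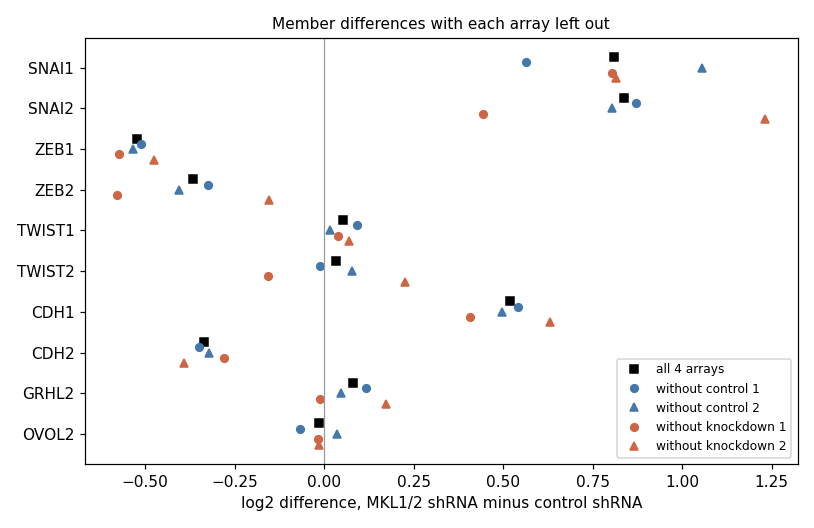
Log2 difference, MKL1/2 shRNA minus control shRNA (horizontal axis), of the 10 genes with all 4 arrays (squares) and with each array left out (circles, without a replicate 1; triangles, without a replicate 2; blue, control; orange, knockdown). SNAI2 ranges from 0.44 to 1.23 and ZEB2 from -0.58 to -0.15, whereas ZEB1 stays between -0.57 and -0.47.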

How the data were processed

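Total RNA was labelled with biotin and hybridised to 1 whole-transcript array per sample. The deposited values, 1 for each of 33297 probes and each array, are on a log2 scale, as inferred from their range. Partek is named in the submitters' processing notes, while background correction and normalization were not given in the sources used here. Of the probes, 19460 list 1 gene symbol, updated through Entrez identifiers to RefSeq names. The probe with the highest mean was used per gene, which gave 18417 genes. The group was the only term of a linear model fitted with lmFit and moderated with eBayes (limma 3.58.1, R 4.3.3), with 2 residual and 4.12 prior degrees of freedom. Two-sided p-values were adjusted by Benjamini-Hochberg across the 18417 genes, with calls made under 0.05. Errors of differences are moderated standard errors and intervals are 95%. The procedure was tested on simulated data. Groups were taken from the titles, and the number of arrays limits the precision. The members and lists were chosen with earlier results of these data known, so the lists have counts and medians but no test. In each list the 4 genes with the smallest limma p are named. Alternatives changed the filter, normalization, probe choice, variance moderation, threshold and block, and left out each array.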

Additional observations from a re-analysis of the deposited data

How the results depend on the processing

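None of the 10 genes passed in limma with all 4 arrays, under any change of filter, normalization, probe choice, moderation, threshold or block. In the main fit 5 of them had an unadjusted limma p under 0.05. The count was 6 with quantile normalization, with the array median subtracted and with the replicate block, and 5 under the other changes. Leaving out arrays gave 0 to 2 of the 10 genes, the 2 being SNAI2 and CDH1 without MKL1/2 shRNA replicate 2, where the lone knockdown array is assumed to vary like the 2 controls. Over all genes 32 passed, and 68 with a robust intensity trend, 144 at a threshold of 0.10, 0 with every probe as its own feature (3486 at an unadjusted p under 0.05 in limma) and 0 to 781 with an array left out. Without control replicate 1 or 2 the count was 0 (866 and 1219 at an unadjusted limma p under 0.05), without knockdown replicate 1 it was 299 and without knockdown replicate 2 it was 781. With the replicate number as a block 93 genes passed and none of the 10; same-numbered arrays did not deviate together (r = -0.067 over genes, which are not independent replicates), and the numbers were not treated as pairs. The sign turned for TWIST2, at -0.011 without control replicate 1 and within a range of -0.16 to 0.23 over the arrays left out, for GRHL2, at -0.011 without knockdown replicate 1 and 0.17 without replicate 2, and for OVOL2, at 0.036 without control replicate 2 and -0.067 without control replicate 1. The cause of these shifts was not tested. ZEB2, GRHL2 and OVOL2 were not tested without the dimmest 40% of genes. No background level was known for any probe.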
